A study of Mus musculus with 18 samples.

Results

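Ribosome assembly and nucleolar genes were followed across 6 RNAs of mouse bone marrow stromal cell clones. The 43 genes of the list were chosen by name for their known work in ribosome assembly, and the list was drawn up with the CD34+ and CD34- values of these arrays already known, so every difference between the groups given here describes the genes and cannot count as independent support. A probe set, the group of short probes that reads 1 transcript on the array, belonged to the list where the platform annotation gave it 1 single symbol equal to a listed gene. That gave 88 of 36701 probe sets and 42 of 15964 genes with a single symbol. Mrto4 had no such probe set, since the annotation names it together with its pseudogenes. Of the 88 probe sets, 70 passed the filter on dim signals, and each of the 42 genes kept at least 1 of them.

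The RNAs came from stromal cells of adult marrow, the adherent fibroblast-like cells of the marrow, isolated as CD34+ or CD34- cells and then grown into single-cell colonies in serum-supplemented DMEM. There were 3 CD34+ and 3 CD34- RNAs, no further treatment or genotype is named in the labels, and each RNA was hybridised to 1 array of each of 3 Affymetrix chip types (MG_U74Av2, MG_U74Bv2 and MG_U74Cv2), 18 arrays in all. Whether a group's 3 RNAs stem from separate clones or cultures is not in the labels, and the series' own design text counts 2 samples in all. The spread between them may therefore be technical and the p-values measure only that spread. If a group is a single clone, clone and CD34 status cannot be told apart. Strain, sex and age of the mice are not in the labels.

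Ribosome assembly starts in the nucleolus, where RNA polymerase I transcribes the long precursor of the ribosomal RNAs (rRNAs). Small nucleolar ribonucleoproteins (snoRNPs) modify that precursor, those of the box C/D class by methylating riboses and those of the box H/ACA class by turning uridines into pseudouridines, and assembly factors then fold, cut and export the precursors of the small and the large subunit. Growing cells make more of these factors, and many of their genes are known targets of the transcription factor Myc.

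Levels are quantile-normalized signals in intensity units, given as mean ± SD over 3 RNAs. A difference is CD34+ minus CD34- on the log2(signal + offset) scale, with a 95% interval in brackets from limma's fit, which covered each chip type whole. Called means a Benjamini-Hochberg adjusted p under 0.05 in that fit. Cd34 itself was called at both probe sets of MG_U74Av2 (log2 2.50 and 2.39). Stromal collagen genes were bright in every RNA, with Col1a2 at 23660 in CD34+ and 36220 in CD34- RNAs on average. Of 12 tested stromal markers 8 were called lower and 1, Cd34, higher, and their summed signal was 68753 to 74198 in CD34+ and 120893 to 133541 in CD34- RNAs. Its part in the results was not tested. Most blood cell markers were dim: 11 of 19 did not pass the filter, among them Ptprc, the pan-leukocyte phosphatase, which read 2.03 to 28.9 over its 3 probe sets. The 8 that passed included Cd14, at 1855 in CD34+ and 1930 in CD34- RNAs on average, and Csf1r, at 711 and 702. The summed signal of the 8 overlapped between the groups (4410 to 5293 in CD34+ and 4018 to 5459 in CD34- RNAs).

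A small number of ribosome assembly genes were higher in CD34+ clones, and none was called lower. Each gene was represented by 1 probe set, the brightest tested one on MG_U74Av2 or, where that chip type had none, on MG_U74Bv2 and then MG_U74Cv2. By these, 6 of 42 genes were called higher. They were Wdr12, Gar1, Emg1, Nop10, Bop1 and Ncl, with differences of 0.46 to 0.74, or 1.38-fold to 1.68-fold. Among all 11969 genes represented this way, 4.39% were called higher and 3.51% lower. On MG_U74Av2 alone 5 of 42 tested probe sets of the list (11.9%) were called higher, beside 8.21% of all probe sets of that chip type, and 0 were called lower, beside 6.69%. The share of called probe sets therefore lay near that of the chip type. At an unadjusted p under 0.05, 12 of the 42 were higher, beside 16% of all probe sets of the chip type, and 3 lower, beside 13.2%.

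The direction was shared more widely than the calls. At the representative probe sets 34 of 42 genes read higher on average in CD34+ RNAs and 8 read lower, with a median difference of 0.18, while 51.6% of all genes read higher, with a median of 0.02. Most of these differences were small beside the spread between RNAs: 36 of the 42 were not called. The groups did not overlap, with CD34+ RNAs above, at 10 of the 42 tested probe sets on MG_U74Av2 (18.8% of all probe sets of the chip type) and, with CD34+ RNAs below, at 3 (15.7% of all). In bulk RNA a lower level in fewer cells and less RNA per cell cannot be told apart.

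**Figure D1:**
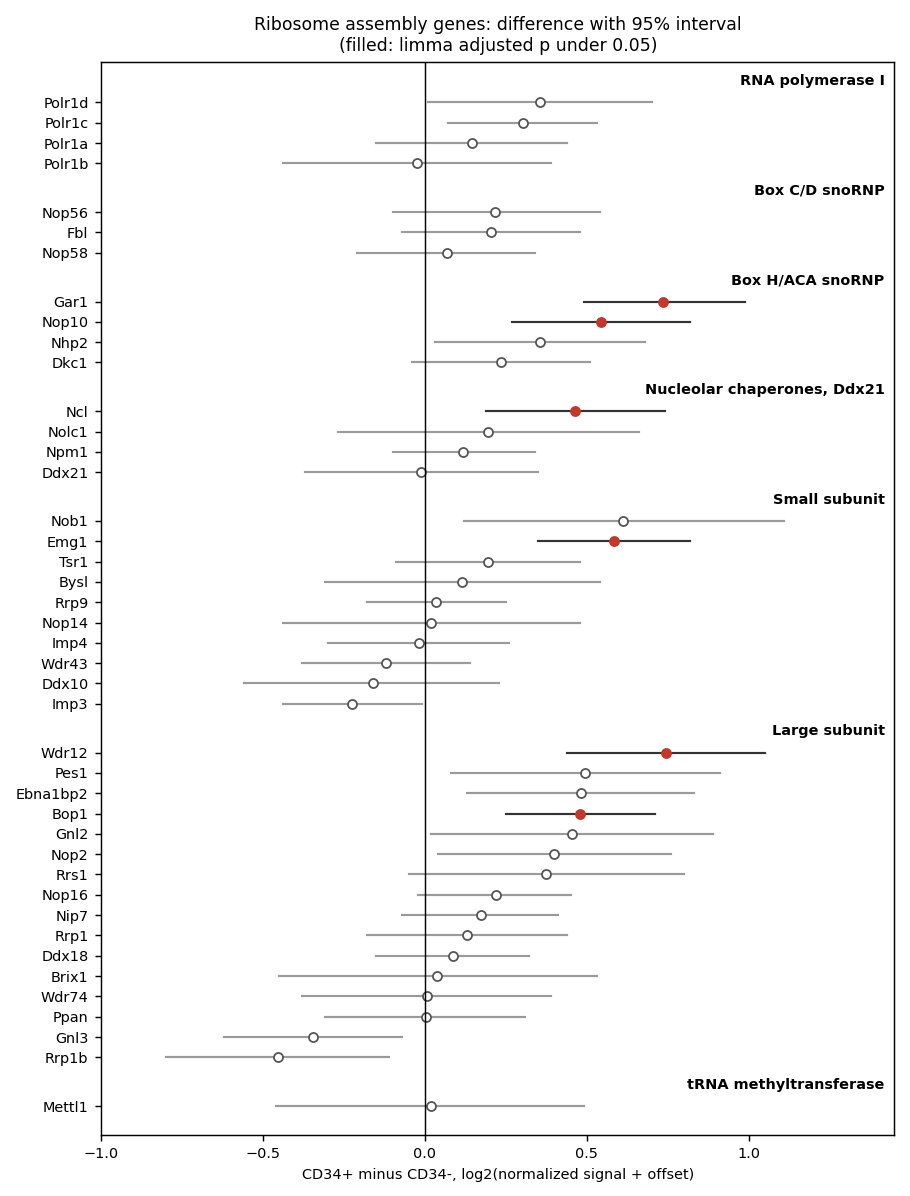
CD34+ minus CD34- difference of each of 42 ribosome assembly genes at its representative probe set, on the log2(normalized signal + offset) scale, with bars for the 95% interval of limma's fit and genes grouped by assembly step. Filled points mark the 6 called genes, and 34 of the 42 points lie above 0.

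Promoter sequences are shown for Gar1 and Emg1, called genes with an ETS factor motif, and for Pes1 and Nop2, which hold the E-box that Myc can bind. The windows, from RefSeq on GRCm38.p6, run from 250 bases before to 50 after the annotated start, 5′ to 3′ on the strand of the gene, and capitals mark CACGTG (the E-box) and CCGGAAGT (the ETS motif) or its reverse complement ACTTCCGG. All 4 were picked by their values: Pes1 and Nop2 have the largest differences among the 6 genes that hold the E-box, and Gar1 and Emg1 were taken from the called genes that hold the ETS motif.
Gar1 (chr3:129831347-129831646, strand -): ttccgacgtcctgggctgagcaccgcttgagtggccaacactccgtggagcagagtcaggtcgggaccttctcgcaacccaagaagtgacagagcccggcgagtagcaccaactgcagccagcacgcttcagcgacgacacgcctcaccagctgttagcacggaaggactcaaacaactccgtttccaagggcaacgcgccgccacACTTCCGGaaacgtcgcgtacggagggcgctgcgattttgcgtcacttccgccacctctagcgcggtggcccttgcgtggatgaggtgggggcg
Emg1 (chr6:124712129-124712428, strand -): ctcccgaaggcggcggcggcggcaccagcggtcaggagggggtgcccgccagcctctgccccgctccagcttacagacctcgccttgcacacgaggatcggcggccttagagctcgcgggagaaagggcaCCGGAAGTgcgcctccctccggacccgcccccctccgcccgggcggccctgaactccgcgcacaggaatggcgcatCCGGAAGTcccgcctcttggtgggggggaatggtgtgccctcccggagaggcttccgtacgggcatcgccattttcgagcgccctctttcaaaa
Pes1 (chr11:3963725-3964024, strand +): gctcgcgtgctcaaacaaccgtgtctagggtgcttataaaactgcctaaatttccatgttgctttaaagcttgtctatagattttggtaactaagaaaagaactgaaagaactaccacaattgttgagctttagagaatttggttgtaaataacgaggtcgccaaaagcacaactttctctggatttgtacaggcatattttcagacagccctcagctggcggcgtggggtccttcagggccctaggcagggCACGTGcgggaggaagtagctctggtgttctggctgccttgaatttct
Nop2 (chr6:125131633-125131932, strand +): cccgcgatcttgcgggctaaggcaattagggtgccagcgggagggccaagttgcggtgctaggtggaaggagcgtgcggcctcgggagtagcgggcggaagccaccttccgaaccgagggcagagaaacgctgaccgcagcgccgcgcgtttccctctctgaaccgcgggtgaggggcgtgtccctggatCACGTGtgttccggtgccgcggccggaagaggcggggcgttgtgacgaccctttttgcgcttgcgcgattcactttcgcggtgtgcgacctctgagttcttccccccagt

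Windows were found for 38 of the 43 listed genes, the others being Fbl, Npm1, Bop1, Rrs1 and Gnl2. The ETS motif CCGGAAGT, read on both strands, was in the windows of 10 of the 38 genes (26.3%), against 5.69% of 17492 protein-coding genes and 3.89% of all 32851 windows. Those genes were Gar1, Emg1, Ebna1bp2, Nhp2, Polr1c, Tsr1, Nip7, Ppan, Brix1 and Wdr74. The list thus held it at a higher share than protein-coding genes at large, as a description of letters and not of bound sites. Emg1 had it at 2 places, 120 and 44 bases before the start, and Gar1 44 bases before the start on the opposite strand. The E-box CACGTG, which reads the same on both strands, was in 6 of 38 (15.8%; Pes1, Nop2, Tsr1, Wdr43, Mettl1 and Imp4), against 8.91% of protein-coding genes. It lay within 31 bases after the start in Pes1, Wdr43, Tsr1 and Mettl1, and 60 and 121 bases before it in Nop2 and Imp4. The GC box GGGCGG was in 24 of 38 (63.2%, against 49.2% of protein-coding genes), TATAAA in 3 (7.89%, against 14.8%) and GCATGCGC, part of the motif of the respiratory factor NRF1, in Nob1 only (2.63%, against 3.94%). In Tsr1 the ETS motif shared bases with a GC box on the opposite strand, and no other matches of different motifs overlapped. The median GC content was 58.0% for the list and 56.3% for protein-coding genes.

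The box H/ACA snoRNP had the largest median difference of the assembly steps. All 4 of its proteins read higher in CD34+ RNAs, 2 of 4 were called, and the median difference was 0.45. Gar1, a core protein of the particle, read 4470, 4443 and 3758 in CD34+ RNAs 1 to 3 and 2399, 2356 and 2788 in CD34- RNAs 1 to 3. The lowest CD34+ RNA lay well above the highest CD34- RNA. The difference was 0.74 (0.49 to 0.99; limma adjusted p = 0.00287), a 1.67-fold higher level, and it stayed called under all 16 alternatives that allowed a test, with differences from 0.66 to 0.81. The filter removed a further probe set of Gar1 on the same chip type, which read 16.4 to 91.1 with overlapping groups.

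Nop10, the smallest protein of that particle, read 5136, 5184 and 5399 in CD34+ RNAs and 3043, 4262 and 3531 in CD34- RNAs. The groups were apart, and CD34- RNA 2 came nearest to the CD34+ level. Nop10 rose by 0.54 (0.27 to 0.82; limma adjusted p = 0.0168), and the call was lost without CD34+ RNA 2, CD34+ RNA 3 or CD34- RNA 1, without the variance trend (adjusted p = 0.0541) and within washing station 2 (adjusted p = 0.0836). Nhp2, which contacts the guide RNA, read 3474, 4269 and 3172 against 2364, 2936 and 3203, a difference of 0.36 (0.03 to 0.68; adjusted p = 0.139). CD34+ RNA 3 lay below CD34- RNA 3, so its groups overlapped. Dkc1, dyskerin, is the pseudouridine synthase itself and was read on MG_U74Bv2 alone, at 2571, 2405 and 2557 against 1997, 2207 and 2153. Its groups did not overlap, yet the difference was the smallest of the particle, 0.23 (-0.04 to 0.51; adjusted p = 0.384).

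The box C/D snoRNP, by contrast, had no called protein, and its 3 members differed by 0.07 to 0.22. Fbl, fibrillarin, the methyltransferase of the particle, read 3885, 4216 and 3421 in CD34+ RNAs against 3831, 3183 and 2994 in CD34- RNAs (difference 0.20, -0.07 to 0.48). Nop56 read 4387, 4607 and 3656 against 3713, 2971 and 4242 (0.22, -0.10 to 0.54). Nop58, which together with Nop56 forms the scaffold, read 978, 1166 and 999 against 1035, 931 and 1020 (0.07, -0.21 to 0.34). The groups overlapped for all 3 genes, and CD34+ RNA 2 was the highest in each. The difference between the box H/ACA and box C/D proteins was not tested.

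Subunits of RNA polymerase I were not called either. The subunits shared with RNA polymerase III had the largest differences: Polr1c read 2224, 2279 and 2072 against 1851, 1795 and 1654, without overlap (0.30, 0.07 to 0.53; adjusted p = 0.0787). Polr1d read 1532, 1929 and 1516 against 1216, 1107 and 1545 (0.36, 0.01 to 0.70; adjusted p = 0.159), and CD34- RNA 3 lay among the CD34+ values. The catalytic subunits differed less. Polr1a, the largest subunit, read 899, 739 and 813 against 694, 782 and 723 (0.14, -0.15 to 0.44), and Polr1b, its partner in the active centre, read 731, 662 and 490 against 519, 730 and 664 (-0.03, -0.44 to 0.39). A dimmer probe set of Polr1c, whose _r suffix marks probes chosen under relaxed rules, differed by 0.02 (adjusted p = 0.936).

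Ncl, nucleolin, an abundant RNA-binding protein of the nucleolus, was called higher. It read 13160, 14450 and 11590 in CD34+ RNAs and 9994, 7934 and 10560 in CD34- RNAs, a difference of 0.46 (0.19 to 0.74; limma adjusted p = 0.0323). The groups were apart by the gap between CD34+ RNA 3 and CD34- RNA 3. That call was the least stable of those on MG_U74Av2: it was lost under 11 of 16 alternatives, which included both simpler scalings of the arrays, to 1 median and to 1 trimmed mean, and its adjusted p reached 0.152. A dim probe set of Ncl on MG_U74Cv2 read 300.2, 622 and 454 against 441, 238 and 549 (0.14, adjusted p = 0.943).

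Npm1, nucleophosmin, the histone and ribosome chaperone, was bright and nearly level, at 15570, 16670 and 13510 against 13610, 13020 and 15460 (0.12, -0.10 to 0.34). Nolc1, which escorts snoRNPs, gave no single answer. Its representative probe set read 565, 410 and 465 against 347, 353 and 560 (0.19, adjusted p = 0.578). A brighter one on MG_U74Bv2 read 3840, 4123 and 3898 against 2902, 2681 and 2881, without overlap (0.47, 0.21 to 0.73; adjusted p = 0.0884), and another on that chip type read 1659, 1326 and 1387 against 1491, 1664 and 1333 (-0.04). Ddx21, an RNA helicase of rRNA transcription and processing, split in the same manner. It read 1383, 1289 and 1098 against 1530, 1033 and 1269 on MG_U74Av2 (-0.01) and 3409, 3237 and 3346 against 2318, 2337 and 2903, without overlap, on MG_U74Bv2 (0.40, adjusted p = 0.181).

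**Figure D2:**
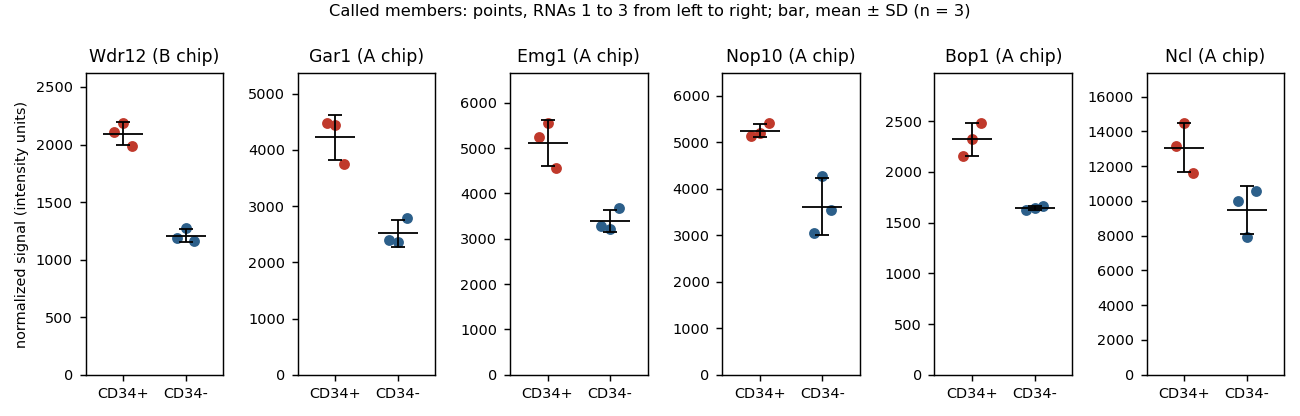
Normalized signal in intensity units of the 6 called genes in each of 3 CD34+ and 3 CD34- RNAs (points, RNAs 1 to 3 from left to right), with the mean ± SD as a bar. Each axis starts at 0, and in each panel all 3 CD34+ RNAs lie above all 3 CD34- RNAs.

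Factors of the small subunit were mixed, with 1 of 10 called and a median difference of 0.03. Emg1, which methylates a pseudouridine of the small subunit rRNA, was the called one, at 5252, 5544 and 4560 in CD34+ RNAs and 3288, 3218 and 3678 in CD34- RNAs. The groups were well apart, and the difference was 0.58 (0.35 to 0.82; limma adjusted p = 0.00592), a 1.50-fold higher level. Like Gar1, it kept its call under all 16 alternatives that allowed a test (differences 0.51 to 0.67). Nop14, the partner with which Emg1 enters the nucleus in yeast, did not show such a shift: it read 1734, 1459 and 1632 against 1965, 1128 and 1773 (0.02, -0.44 to 0.48). A dimmer probe set of Nop14 differed by -0.09 (limma adjusted p = 0.918).

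Nob1, the endonuclease that makes the last cut at the end of the small subunit rRNA, had the largest difference of the step, 0.61 (0.12 to 1.11), but was read on MG_U74Bv2, where the spread was wider (adjusted p = 0.205). It read 785, 763 and 747 against 357, 581 and 475, and the groups did not overlap. Tsr1, a late factor of the small subunit, read 1604, 1445 and 1464 against 1261, 1161 and 1520 (0.20, -0.09 to 0.48). Imp3, a protein of the U3 snoRNP, leaned the other way, at 2860, 3127 and 2993 against 3725, 3230 and 3575, without overlap (-0.22, -0.44 to -0.01; adjusted p = 0.153). Its partner Imp4 read 801, 722 and 819 against 858, 753 and 764 on MG_U74Av2 (-0.02) and 1473, 1217 and 1255 against 947, 1146 and 1164 on MG_U74Bv2 (0.25, adjusted p = 0.477). Rrp9, also of the U3 snoRNP, read 2387, 2161 and 2270 against 2155, 2239 and 2257 (0.03, -0.18 to 0.25). Its brighter probe set on MG_U74Cv2 read 3785, 3249 and 3046 against 5538, 5031 and 2928 (-0.37, -0.92 to 0.19; adjusted p = 0.736). None of the 3 U3 proteins was called, and their intervals overlapped.

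The remaining small subunit genes had overlapping groups. Wdr43, an early factor tied to rRNA transcription, read 1695, 1698 and 1607 against 1612, 1850 and 2002 (-0.12), while a further probe set on the same chip type gave 0.07, and one on MG_U74Cv2, with CD34- RNAs between 54.6 and 1506, gave 0.41. Ddx10, a helicase, read 332, 355 and 279.9 against 331, 342 and 429 (-0.16), while 3 further probe sets gave -0.04 to 0.42, none with an adjusted p under 0.784. Bysl, bystin, read 981 ± 198 against 903 ± 197 (0.12). At the representative probe sets the intervals of these 3 genes reached from -0.56 to 0.54. Those of further probe sets were wider, up to -1.35 to 2.18 for Wdr43 on MG_U74Cv2.

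In the large subunit, 2 of 16 genes were called higher and 14 of 16 read higher on average, with a median difference of 0.20. The PeBoW complex of Pes1, Bop1 and Wdr12, which is needed to process the large subunit rRNA, held both called genes. Wdr12 read 2113, 2183 and 1985 in CD34+ RNAs and 1187, 1271 and 1162 in CD34- RNAs on MG_U74Bv2. With a difference of 0.74 (0.44 to 1.05; limma adjusted p = 0.0405), or 1.68-fold, it was the 1 called of 14 tested probe sets of the list on that chip type, where 0.685% of all probe sets were called higher and 0.401% lower. At the 14 tested probe sets the groups did not overlap, with CD34+ RNAs above, at 6 (12.8% of all). The call was lost under 10 of 16 alternatives, among them leaving out any RNA other than CD34- RNA 2, although the difference stayed between 0.71 and 0.82. On MG_U74Bv2 washing station 1 held all 3 CD34+ arrays and 1 CD34- array and station 2 the other CD34- arrays only, and with the station as a block the adjusted p was 0.365 (difference 0.77). A dimmer probe set of Wdr12 read 855, 877 and 828 against 705, 808 and 880.1 (0.09, adjusted p = 0.843).

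Bop1 read 2155, 2328 and 2478 against 1623, 1646 and 1668, a difference of 0.48 (0.25 to 0.71; limma adjusted p = 0.0129). Its CD34- RNAs lay close together, and all CD34+ RNAs lay above them. The call was lost only without CD34+ RNA 2 (adjusted p = 0.0604), of 16 alternatives with a test. Pes1, the third protein of the complex, read 512, 666 and 594 against 358, 350 and 517 on MG_U74Av2 (0.50, 0.08 to 0.91; adjusted p = 0.106). CD34- RNA 3 overlapped the CD34+ values, and without it the difference was 0.66 (adjusted p = 0.0309). That RNA was the highest CD34- reading of Pes1, so its removal widens the difference and the call gives no support. A second, brighter probe set of Pes1 on MG_U74Cv2 read in the opposite direction, 16000, 15630 and 16840 against 22940, 16900 and 17300 (-0.22, adjusted p = 0.727).

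Among the other large subunit factors, Ebna1bp2, whose yeast relative acts early in the pathway, read 1452, 1604 and 1243 against 878, 947 and 1225 (0.48, 0.13 to 0.83; adjusted p = 0.0673), with groups just apart. All of its 4 tested probe sets read higher in CD34+ RNAs (0.18 to 0.81). Gnl2, a nucleolar GTPase, differed by 0.46 (adjusted p = 0.153), Nop2, an rRNA methyltransferase, by 0.40 (adjusted p = 0.132) and Rrs1, which in yeast brings an rRNA of the large subunit into the particle, by 0.37 (adjusted p = 0.226). Leaving out a single CD34- RNA brought calls here: Gnl2 and Ebna1bp2 without CD34- RNA 3 (0.62 each, adjusted p = 0.0489 and 0.0221), and Nop2 without CD34- RNA 1 (0.57, adjusted p = 0.0359). In each case the RNA left out was the highest CD34- reading of the gene. Its removal widens the difference, so these calls show dependence on 1 RNA and give no support. Nop16 differed by 0.20 to 0.23 at 3 probe sets, Nip7 by 0.17 and Ddx18, a helicase, by 0.09 and 0.19. Nop16 and Nip7 bind precursors of the large subunit. Wdr74 and Ppan, also needed for its assembly, were level (0.01 and 0.00).

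The genes that leaned downward were led by Rrp1b and Gnl3. Rrp1b, a nucleolar relative of Rrp1, read 630, 601 and 523 in CD34+ RNAs and 797, 705 and 970 in CD34- RNAs, without overlap (-0.45, -0.80 to -0.11; adjusted p = 0.079), but its probe sets on the other chip types gave 0.13 and 0.03 with overlapping groups. Rrp1 itself read 2133, 2164 and 1866 against 1954, 1556 and 2147 (0.13) and, at 2 probe sets of MG_U74Cv2, differed by -0.16 each. Gnl3, nucleostemin, a GTPase first described in stem cells, read 1389, 1158 and 1150 against 1668, 1632 and 1437, without overlap (-0.35, -0.62 to -0.07; adjusted p = 0.093). It was read by this probe set alone, and the related GTPase Gnl2 leaned the opposite way. Brix1, a large subunit factor that gives its name to a protein family, read 1844, 3768 and 2348 against 2356, 2485 and 2576 (0.04). At that probe set its CD34+ RNAs spread far more (SD 998) than its CD34- RNAs (SD 110). On MG_U74Cv2 another probe set of Brix1 differed by -0.23 (limma adjusted p = 0.883) with overlapping groups, and both carry the _r suffix.

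Mettl1, which methylates a guanosine of tRNAs rather than rRNA, gave the widest disagreement between probe sets. On MG_U74Av2 it read 353, 336 and 288 against 420, 323 and 239 (0.02, -0.46 to 0.49). On MG_U74Cv2 another probe set read 1329, 1142 and 876 against 235, 224 and 204, a difference of 1.91 (1.24 to 2.59), which was still not called on that chip type (adjusted p = 0.0771). There 0 of 14 tested probe sets of the list were called, and limma called 0.0401% of all probe sets higher and 0.0535% lower. At an unadjusted p under 0.05, Mettl1 was the only one of the 14, and it read higher, as did 4.72% of all probe sets of the chip type at that threshold. Its _i suffix marks an incomplete set of probes, and what that probe set reads was not tested.

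**Figure D3:**
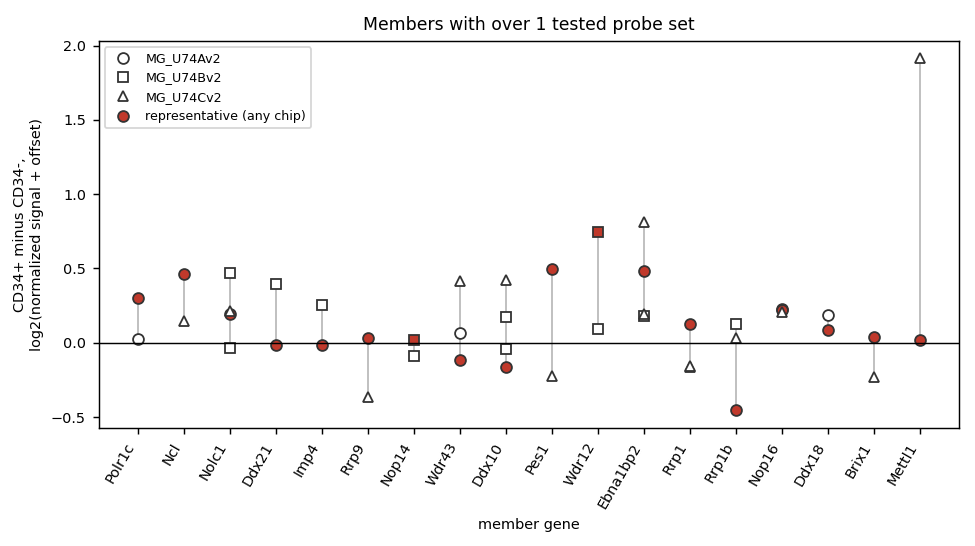
Difference of every tested probe set of the 18 genes with more than 1 of them, on the log2(normalized signal + offset) scale, with symbols for the chip type and filled symbols for the representative probe set. Mettl1 spans 0.02 to 1.91, and 11 of the 18 genes have probe sets on both sides of 0.

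Probe sets of 1 gene often disagreed at this size of difference. Of the 18 genes with more than 1 tested probe set, 7 had all of them on the same side of 0 and 11 on both sides. The median range between probe sets of a gene was 0.32 in the former and 0.41 in the latter, more than the list's median difference of 0.18. Gar1, Emg1, Nop10 and Bop1 had 1 tested probe set each, so their calls rest on it. For Ncl and Wdr12 the second tested probe set read in the same direction without a call.

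By RNA, CD34- RNA 2 and CD34+ RNA 2 marked the ends. Taking the level of each gene minus its mean over the 6 RNAs, the median over the 42 genes was 0.12, 0.15 and 0.04 in CD34+ RNAs 1 to 3 and -0.08, -0.16 and 0.01 in CD34- RNAs 1 to 3. CD34+ RNA 3 and CD34- RNA 3 thus lay close to each other. Over all genes the same medians were between -0.003 and 0.028. The median difference of the list stayed between 0.11 and 0.21 when 1 RNA was left out.

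**Figure D4:**
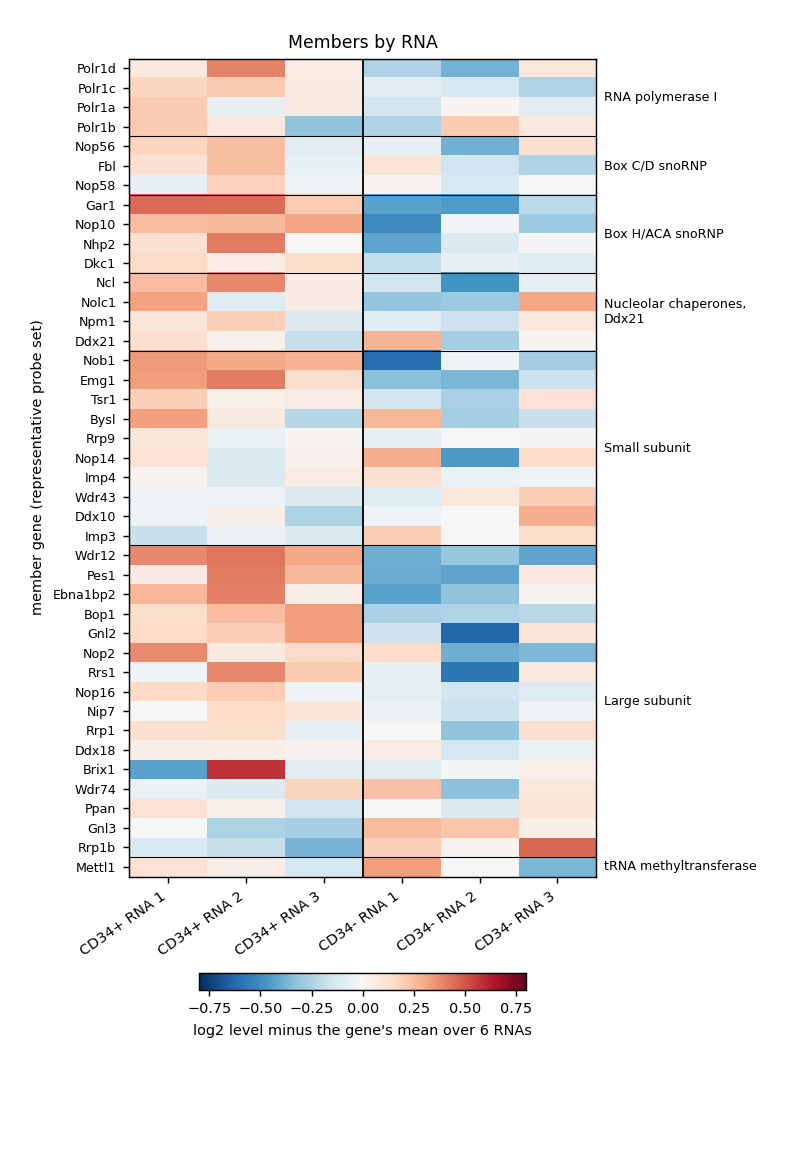
Level of each of 42 genes (rows, by assembly step) in each of 6 RNAs (columns) as log2 level minus the mean of the gene over the 6 RNAs; red is above and blue below that mean. CD34- RNA 2 is the bluest column (median -0.16) and CD34+ RNA 2 the reddest (median 0.15), and small subunit genes are mixed in direction.

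Technical measures moved with the groups. The RNA concentrations in the labels were 0.573, 0.421 and 0.721 µg/µl for CD34+ RNAs 1 to 3 and 0.989, 1.38 and 1.01 µg/µl for CD34- RNAs 1 to 3. The most dilute RNA, CD34+ RNA 2, had the highest median of the list, and the most concentrated, CD34- RNA 2, the lowest. Concentration times volume was 14.9 to 15.0 µg for every RNA. The ratio of 3′ to 5′ signal of Gapdh on MG_U74Av2 was 0.700 to 0.771 in CD34+ and 0.802 to 0.832 in CD34- RNAs, and that of actin 1.03 to 1.09 and 1.10 to 1.20. The ratio of actin was also lower in CD34+ RNAs on MG_U74Cv2 (0.951 to 1.02 against 1.03 in every CD34- RNA). Both ratios overlapped on MG_U74Bv2, as did that of Gapdh on MG_U74Cv2. The part of these measures in the differences was not tested. Washing stations held both groups on MG_U74Av2: within station 1, where 1 array met 1 array there and 3 met 1 on the other chip types, the median difference of the list was 0.08, and within station 2, with 2 against 2 arrays, 0.20.

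Other genes of the pathway were followed in lists of their own. Of 28 further large subunit factors 2 were called higher and 0 lower (median difference 0.18). Rpf1, a relative of Brix1, read 704, 761 and 816 in CD34+ RNAs and 286, 286 and 379 in CD34- RNAs (1.15, adjusted p = 0.00177), and the helicase Ddx51 read 400, 458 and 381 against 186, 161 and 266 (0.88, adjusted p = 0.0205). Both differed more than any listed gene did at its representative probe set. The probe set of Ddx51 carries the _i suffix of an incomplete set of probes, and what it reads was not tested. Another probe set of Ddx51 on MG_U74Cv2 was dim, did not pass the filter and had overlapping groups (-0.12). Of 32 further small subunit factors only Krr1 was called (0.33, adjusted p = 0.0422; median of the list 0.16), and 2 further probe sets of it gave 0.08 and -0.04. None of 14 exosome and RNase MRP proteins (median 0.31), 7 snoRNP assembly factors (median 0.16) and 7 further genes of RNA polymerase I transcription (median -0.06) was called at its representative probe set. A second probe set of Taf1d, a subunit of the selectivity factor of RNA polymerase I, singled out after its values were seen, fell by 0.47 (adjusted p = 0.0206). All of these shares stand beside 4.39% called higher among all genes. Among genes represented on MG_U74Av2, where 20 of the 28 further large subunit factors were read, that share was 8.49%.

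Myc, the transcription factor best known for driving such genes, was not higher in CD34+ clones. It read 1288, 1105 and 1419 in CD34+ RNAs and 1619, 1225 and 1572 in CD34- RNAs (-0.20, -0.53 to 0.13; adjusted p = 0.401). Its groups overlapped. None of the 7 tested genes of the Myc network was called, Mycn and Mycl did not pass the filter, and the median over the 7 was -0.08. Their differences ran from -0.54 for Mxd4 to 0.65 for Mxd1. Mxd4, singled out after its values were seen, read lower in CD34+ RNAs at each tested probe set (-0.54, -0.51 and -0.87, smallest limma adjusted p = 0.0506). Its groups did not overlap on MG_U74Av2 and MG_U74Bv2 but did on MG_U74Cv2. None of 4 tested genes of nucleolar stress and p53 was called (median 0.13).

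Proliferation markers, genes of DNA synthesis and mitosis, were mostly higher in CD34+ clones. At their representative probe sets 13 of 15 read higher on average, 7 were called higher and 0 lower, and the median difference was 0.47. Most were read on MG_U74Av2, where 8.49% of all genes represented there were called higher and 6.96% lower. Rrm2, a subunit of ribonucleotide reductase, read 1537 ± 139 against 714 ± 73.2 (1.05, adjusted p = 0.00103), and the related Rrm1 and the mitotic kinase Cdk1 rose by 0.76 and 0.74. Mki67 differed by 0.50 without a call (adjusted p = 0.0779), and a dimmer probe set of it by -0.195 (limma adjusted p = 0.673). Pcna, Mcm5 and Ccnb2 were nearly level (0.067, 0.057 and 0.027). Mcm6 and Tyms, represented on MG_U74Cv2, read lower on average without a call (-0.121 and -0.305). The probe sets of Mcm6 disagreed. A dimmer one on that chip type, with the _r suffix, read 652, 890 and 1069 against 358, 188 and 187. Its groups did not overlap, and it was not called either (1.51, limma adjusted p = 0.207). The summed signal of the 15 markers was 44258 to 46976 in CD34+ and 34283 to 35732 in CD34- RNAs, without overlap. The part of cell division in the ribosome assembly values was not tested.

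**Figure D5:**
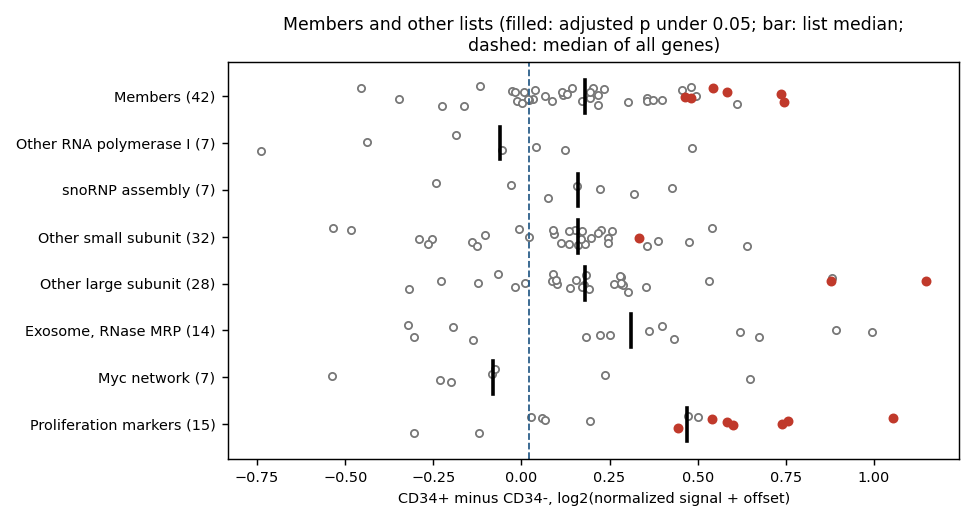
Difference of each gene at its representative probe set, on the log2(normalized signal + offset) scale, for the 42 ribosome assembly genes and 7 other lists, with the number of genes in brackets, filled points for genes called higher, a black bar for the median of the list and a dashed line for the median of all genes (0.02). The assembly lists centre between -0.06 and 0.31, and proliferation markers at 0.47.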

How the data were processed

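The deposited values were signals from MAS5, per the submitters' processing notes, in linear intensity units, 1 file per array. The authors' CD34+ arrays of a chip type shared 1 trimmed mean, and the CD34- arrays lay below them by a factor of 14.1 to 120, so the deposited levels could not be set against each other unscaled. No further step of the authors' processing is recorded there.

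Arrays were quantile-normalized within each chip type, an offset at the 20th percentile of the chip type (51.5, 106 and 97.9 for A, B and C) was added, and log2 was taken. The offset understates differences of dim genes. Control probe sets were left out, as were probe sets whose deposited value was above the 40th percentile of their own array on fewer than 3 of 6 arrays. This left 7634, 7737 and 7481 probe sets. limma 3.58.1 in R 4.3.3 (lmFit, and eBayes with an intensity trend) tested CD34+ against CD34-, with Benjamini-Hochberg adjustment within each chip type. The fit was tested on simulated data. On the 3 chip types, correlations of log2 values between arrays of a group were 0.850 to 0.974 and between groups 0.836 to 0.947, and with 3 arrays a group their number limits the precision.

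Gene symbols came from the platform annotation: 10833, 10581 and 7717 probe sets had 1 symbol, 396, 178 and 150 several, and 1193, 1652 and 4001 none, and 10817, 10550 and 7677 matched the RefSeq gene table by Entrez number, with 0 symbols changed. Fbl has 1 pseudogene in that table and Mrto4 has 2, and signals of near-identical copies cannot be told apart.

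Members, lists, tests and motifs were chosen with earlier results of these data known. Values in every RNA are given for the 4 members of each assembly step with the largest differences and for members whose tested probe sets differ in sign, with further ones where space allowed. Of other lists, some called genes are named, some uncalled ones after their values were seen, and Myc, Mki67 and Cd34 always. Alternatives changed the scaling, the offset, the filter, the variance trend, the washing station, the replicate block, the probe set of a gene and the RNAs used.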

Additional observations from a re-analysis of the deposited data

How the results depend on the processing

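No probe set of the list was called lower under any alternative run, and 0 were called on MG_U74Cv2. The count called higher on MG_U74Av2 was 5, and 4 to 6 with other scalings, offsets, filters or the station, but 3 without the variance trend and 2 to 8 with an RNA left out (2 without CD34+ RNA 2, 8 without CD34- RNA 3). On MG_U74Bv2 the 1 call became 0 without the filter, without the variance trend, with the station as a block, with the replicate block and within station 1, and was 0 to 1 with an RNA left out. The count of genes called higher at their representative probe set was 6, then 3 without the variance trend and 2 to 8 with an RNA left out. The 1138 calls over all probe sets of MG_U74Av2 became 623 to 1235 with an RNA left out. The median difference of the list was 0.18, and 0.08 within station 1, 0.11 to 0.21 with an RNA left out and 0.16 to 0.21 under the rest. The number of genes reading higher was 29 to 37 of 42, with 29 within station 1 and without CD34+ RNA 1, and 28 of 38 within station 2. Fits with an RNA left out or within a station also held fewer arrays. The cause of these changes was not tested. The median of all genes was 0.02 under each other scaling.

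RNAs of the same number in both groups did not deviate together (correlations -0.05 to 0.07). The labels do not pair them, and the correlations cannot show whether they were handled together. With the replicate number as a block, 4 probe sets of the list were called on MG_U74Av2 and 0 on MG_U74Bv2, and the median stayed at 0.18.

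Of the called genes, Gar1 and Emg1 kept their calls under each of 16 alternatives with a test, Bop1 lost 1, Nop10 5, Wdr12 10 and Ncl 11. Among 573 tests of the 36 uncalled genes, 6 gave a call and 26 gave a difference of the opposite sign (to 2 decimals), none of those called.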
